A study of Mus musculus with 12 samples.

Results

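The regions described here were open chromatin regions that gained accessibility in each of the iNKT1, iNKT2 and iNKT17 subsets of *Hivep3*-/- mice. A region was a member when the mean log2 value of the 2 *Hivep3*-/- libraries exceeded that of the 2 C57BL/6 libraries by at least 0.585, a 1.5-fold difference, in each subset, and when its highest group mean was at least 2.32 on the log2 scale, 5 insertions per kilobase. Of 62165 autosomal regions, 563 (0.906%) met this rule, and the mirrored rule found 607 regions lost in all 3 subsets. The table holds 63309 regions in all. Since the genotype difference chose the members, its values in them are given as a description, with no test.

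Chromatin accessibility was measured by ATAC-seq, in which a transposase inserts sequencing adapters into open DNA, in thymic invariant natural killer T (iNKT) cells. The 6 groups were iNKT1, iNKT2 and iNKT17 cells of untreated wild-type C57BL/6 mice and of *Hivep3*-/- mice on the C57BL/6 background, 8 to 9 weeks old, with 2 libraries each. Cells came from pooled thymi, while the sample titles number mice, so each library is called by that number as a replicate. The subsets were sorted, combined for the transposition and sorted again on ICOS and CD138, so the 3 subsets of a replicate may share a pool of mice and a transposition reaction. Which part of *Hivep3* was deleted is not given in the sources used here. The values are log2 insertions per kilobase, which the authors normalized with voom, and depth cannot be read from them. All regions are 500 bp long, so levels were compared between regions on 1 length.

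HIVEP3 is a large zinc finger protein of a family that binds the same kind of DNA element as NF-κB and that also acts as an adaptor in signalling. NF-κB proteins are transcription factors held in the cytoplasm by inhibitors until a receptor, such as the T cell receptor, releases them. iNKT cells are T cells with a nearly invariant receptor for lipids, which mature in the thymus into subsets that resemble helper T cell lineages. iNKT1 cells rely on T-bet, iNKT2 cells make IL-4, and iNKT17 cells make IL-17.

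Printed below are 8 of the members as 200 bases of the reference each, since they carry the sequence features described later. All are from the plus strand of GRCm38.p6 (mm10), 5′ to 3′. The first 5 hold the NF-κB consensus, 10 bases long with several letters allowed at some positions, and capitals mark its matches on either strand. *Slco3a1*, *5830411N06Rik* and *Cd247* are the members with the consensus, outside exons, in which the smallest of the 3 gains was largest, while *Rasgrp1* and *Gadd45b* were chosen after their values were seen, because they hold several overlapping or neighbouring matches.

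Slco3a1 intron, chr7:74527790-74527989: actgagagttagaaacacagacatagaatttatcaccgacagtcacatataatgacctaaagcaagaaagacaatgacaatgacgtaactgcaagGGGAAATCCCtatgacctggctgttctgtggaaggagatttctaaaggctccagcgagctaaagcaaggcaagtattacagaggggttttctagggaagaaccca
5830411N06Rik intron, chr7:140249697-140249896: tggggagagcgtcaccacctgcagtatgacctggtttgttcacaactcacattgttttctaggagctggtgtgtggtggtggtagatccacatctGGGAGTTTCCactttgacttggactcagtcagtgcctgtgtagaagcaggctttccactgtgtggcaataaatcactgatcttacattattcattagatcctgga
Cd247 promoter, chr1:165810306-165810505: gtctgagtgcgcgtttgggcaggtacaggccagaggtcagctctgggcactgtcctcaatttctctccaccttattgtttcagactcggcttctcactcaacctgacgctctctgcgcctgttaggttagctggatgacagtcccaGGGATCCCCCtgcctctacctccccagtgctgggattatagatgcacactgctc
Rasgrp1 intergenic, chr2:117361070-117361269: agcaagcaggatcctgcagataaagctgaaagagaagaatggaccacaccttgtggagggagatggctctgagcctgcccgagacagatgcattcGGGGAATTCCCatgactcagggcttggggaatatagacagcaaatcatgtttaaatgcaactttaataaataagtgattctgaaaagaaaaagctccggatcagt
Gadd45b intergenic, chr10:80932765-80932964: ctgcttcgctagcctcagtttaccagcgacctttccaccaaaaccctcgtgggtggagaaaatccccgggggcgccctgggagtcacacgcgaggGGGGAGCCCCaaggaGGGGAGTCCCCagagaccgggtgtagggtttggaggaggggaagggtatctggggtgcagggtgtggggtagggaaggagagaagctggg

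The other three are the members without the consensus, again outside exons, whose smallest gain was largest. In the *Snd1* and *Cd247* windows there are no capitals, because none of the 12 motifs searched occurs in them. In the *Camk2b* window the first run of capitals marks an E-box and the next a GATA element.

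Snd1 intron, chr6:28929271-28929470: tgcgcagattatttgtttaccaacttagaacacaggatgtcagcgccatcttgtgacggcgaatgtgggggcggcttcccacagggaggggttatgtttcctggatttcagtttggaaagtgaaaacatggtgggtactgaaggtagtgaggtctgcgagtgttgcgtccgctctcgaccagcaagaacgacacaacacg
Cd247 intron, chr1:165796937-165797136: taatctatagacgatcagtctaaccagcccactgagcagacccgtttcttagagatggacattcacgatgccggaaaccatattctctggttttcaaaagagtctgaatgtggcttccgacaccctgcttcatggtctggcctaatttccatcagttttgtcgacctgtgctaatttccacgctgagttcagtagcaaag
Camk2b intron, chr11:6005770-6005969: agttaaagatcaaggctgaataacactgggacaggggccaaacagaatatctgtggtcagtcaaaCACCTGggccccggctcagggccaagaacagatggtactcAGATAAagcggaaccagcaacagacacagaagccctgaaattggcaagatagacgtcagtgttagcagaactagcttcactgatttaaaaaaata

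Markers of iNKT1 and iNKT17 cells separated these libraries from the others, and those of iNKT2 cells did so in part. The promoter region of *Tbx21*, which encodes T-bet, was at 5.15 to 5.37 in the 4 iNKT1 libraries and at 3.42 to 4.63 in the others. For *Il2rb* it was at 8.02 to 8.08 against 7.47 to 7.91. The promoter region of *Sdc1*, which encodes CD138, was at 5.92 to 6.34 in iNKT17 libraries and at 3.46 to 4.0 in the others. For iNKT2 cells, *Izumo1r* was at 5.99 to 6.39 against 3.51 to 5.51 in the others, and *Slamf6* at 4.25 to 4.67 against 2.66 to 3.90. However, *Icos*, a sort marker, was at 5.33 to 5.65 in iNKT2 and 5.25 to 5.58 in iNKT1 libraries. *Gata3* was at 5.07 and 5.13 in *Hivep3*-/- iNKT2 against 5.33 and 5.54 in *Hivep3*-/- iNKT17 libraries. No region lay at the *Csf1r* or *Rag1* loci, and no promoter region at *Pax5*, *Cd79a*, *Rag2*, *Ptcra* or *Foxn1*, while promoter regions at *Ebf1* (2.70 to 3.51), *Spi1* (4.08 to 5.35), *Cebpa* (3.14 to 4.81) and *Epcam* (2.39 to 4.40) were listed. None of the regions at these other-cell loci was a member, and whether other cells had a part in the gains was not tested. At *Hivep3* itself, none of 21 regions was a member and the promoter region was at 6.36 to 6.72 in all libraries, which does not check a deletion elsewhere in the gene.

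The members were weakly accessible in C57BL/6 cells, and in *Hivep3*-/- cells their median was still below that of all regions. The median of the 563 members in the 2 C57BL/6 libraries was 2.08 and 2.16 in iNKT1, 1.44 and 1.57 in iNKT2 and 1.91 and 2.09 in iNKT17 cells. In the *Hivep3*-/- libraries it was 3.19 and 3.32, 2.79 and 2.98, and 3.05 and 3.23, against 3.90 for all autosomal regions in every library. The median gain was 1.01 (range 0.586 to 4.62) in iNKT1, 1.21 (0.589 to 4.13) in iNKT2 and 1.01 (0.587 to 4.30) in iNKT17 cells, and the largest of a member's 3 gains was in iNKT2 cells for 259 members, in iNKT17 for 165 and in iNKT1 for 139. For scale, the median absolute difference between the 2 replicates of a group, over the members, was between 0.212 and 0.415.

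**Figure D1:**
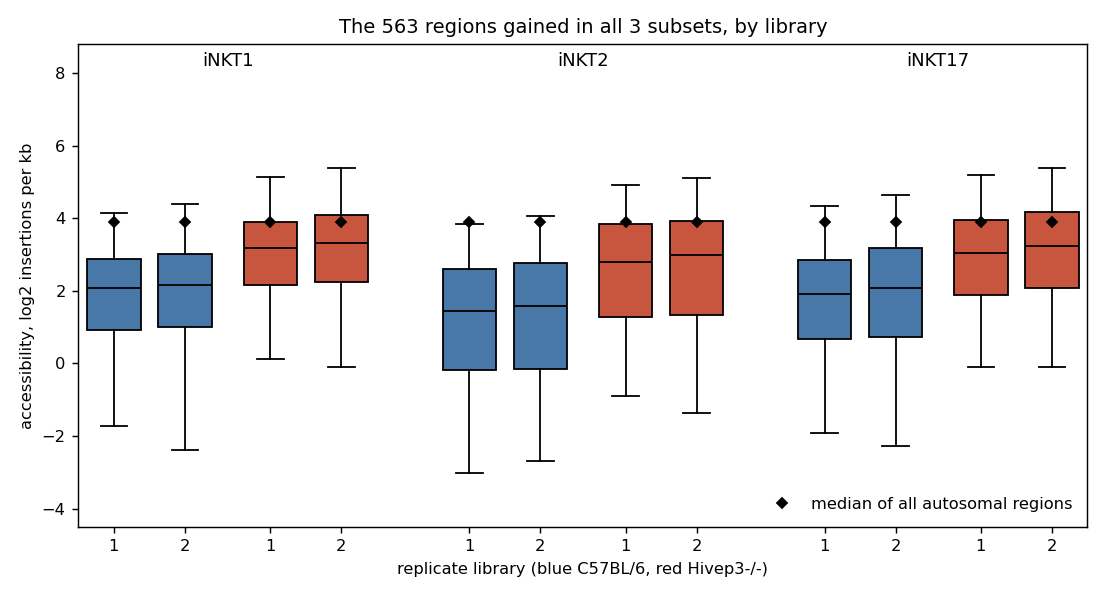
Accessibility of the 563 members in each of the 12 libraries, in log2 insertions per kilobase, with boxes at the quartiles, a line at the median and whiskers at the 5th and 95th percentiles. The C57BL/6 medians (blue) lie between 1.44 and 2.16 and the *Hivep3*-/- medians (red) between 2.79 and 3.32, all under the autosomal median of 3.90 (diamonds).

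The study counts a region as accessible at 5 insertions per kilobase. By that level, 248, 181 and 235 members were accessible in C57BL/6 iNKT1, iNKT2 and iNKT17 cells, and 407, 348 and 399 in the *Hivep3*-/- subsets. In all 3 C57BL/6 subsets 108 members were accessible and in none of them 181. In all 3 *Hivep3*-/- subsets it was 240. Only 28 members went from accessible in no C57BL/6 subset to accessible in every *Hivep3*-/- subset.

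Most members lay close to the rule's limit. The smallest of the 3 gains had a median of 0.774 and was under 0.8 in 307 members, while 123 members gained at least 1 in each subset and 22 at least 3-fold. Just inside the limit were an intron region of *Tgfbr2*, an intron region of *Ehd3* and a region at the *Pfkp* promoter, with smallest gains of 0.587, 0.586 and 0.587, and just outside it regions nearest to *Arglu1*, *Wdr26* and *March3*, with smallest gains of 0.584, 0.583 and 0.582. At the level limit the lowest highest group means inside were 2.36 (*Tox4*), 2.4 (*Hr*) and 2.43 (*Adgrl2*), and the only region kept out by that limit alone, an exon region of *Ifngr2*, had 2.31. The same gain in exactly 1 subset was found in 9821 autosomal regions and in exactly 2 subsets in 2438, so that members were 10.1%, 8.66% and 13.1% of the regions gained in iNKT1, iNKT2 and iNKT17 cells.

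In the genotype contrasts, which the rule used, limma with Benjamini-Hochberg adjustment called members higher in *Hivep3*-/- cells, namely 63 of the 408 tested for iNKT1, 78 of the 353 for iNKT2 and 47 of the 402 for iNKT17. A call needed 3-fold or more and an adjusted p below 0.1. Of all regions tested, 0.89%, 0.474% and 0.133% were called higher. Both *Hivep3*-/- libraries were above both C57BL/6 libraries in 523, 513 and 527 members, against 25.2%, 27.2% and 21.7% of autosomal regions, and in all 3 subsets in 455 members, against 4.01%. Every *Hivep3*-/- library was above every C57BL/6 library in 77 members, against 0.302% of autosomal regions. Nothing is read from these counts, because they restate the choice of members.

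Among the 244 members tested in every subset, 11 were called higher in all 3 genotype contrasts. These 11 were also the only regions so called among the 46047 tested in all 3 (0.0239%). The rule used these contrasts, so nothing is read from this count either. At *Camk2b* lay 5 of the 11, 2 were in exons of *Ifrd1* and 1 was between genes near *Lsmem1*, a neighbour of *Ifrd1*. The others were at *Cd247*, near *Fosl2* and near *Gm10273*.

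Some gains rested on values that the table cannot resolve. In 58 members (10.3%, against 3.95% of autosomal regions) some library was at the lowest value it contains, and in each of these members a C57BL/6 library was. In 5 members all 4 libraries of iNKT17 cells were at those lowest values, which were −4.05 in both C57BL/6 and −3.06 and −2.58 in the *Hivep3*-/- libraries, so the gain there was only the distance between the libraries' lowest values. An intron region of *Gas7*, a region near *Rpl9-ps1* and an intron region of *Sema6d* were among them. Without the 58, an alternative chosen after the values were seen, 505 members were left.

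The member with the largest smallest gain was an intron region of *Snd1*, which encodes a nuclease-domain protein that binds RNA and transcription factors, at chr6:28929121-28929620. In C57BL/6 replicate 1 and 2 it was at 4.27 and −3.79 in iNKT1, 3.76 and −3.12 in iNKT2 and 3.37 and −1.65 in iNKT17 cells. In *Hivep3*-/- cells it was at 3.99 and 4.23, 4.88 and 4.0, and 4.13 and 4.34. C57BL/6 replicate 1 was thus near the *Hivep3*-/- level in all 3 subsets, and in iNKT1 cells above both of its libraries, while replicate 2 was low throughout. In iNKT1 cells the gain at *Snd1* therefore came from C57BL/6 replicate 2 alone. In iNKT2 and iNKT17 cells replicate 1 was also below both *Hivep3*-/- libraries, but replicate 2 was much further below them. Repeat sequence makes up 80.6% of the region.

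A second intron region of *Snd1*, at chr6:28923003, had the same form, with 2.30 and −1.65 in C57BL/6 iNKT1, 1.42 and −2.10 in iNKT2 and 1.79 and −2.29 in iNKT17 cells. Its *Hivep3*-/- values were 2.17 and 2.2, 3.02 and 2.15, and 2.13 and 2.79. At least 1 log2 unit lay between the C57BL/6 replicates, in the same direction in all 3 subsets, in 8 members (1.42%, against 0.0306% of autosomal regions). Replicate 2 was the lower in 4 of them, 3 regions at *Snd1* and 1 at *Cdk5rap1*. It was the higher in the other 4, 2 near *Fam71a* and 1 each at *Pde4b* and *9930022D16Rik*. The *Hivep3*-/- replicates were that far apart in the same direction in all 3 subsets in 2 members, at *Dennd4a* and *Fosl2*.

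*Camk2b*, which encodes a subunit of a calcium and calmodulin-dependent kinase, held 4 of the 8 members with the largest smallest gains. The intron region at chr11:6005620-6006119, printed in part above, was at 2.63 and 2.16 in C57BL/6 iNKT1, 0.56 and 0.99 in iNKT2 and 0.97 and 0.64 in iNKT17 cells. In *Hivep3*-/- cells it was at 4.74 and 4.61, 3.80 and 3.68, and 4.03 and 4.01. The genotypes did not overlap, and in both the iNKT1 libraries were the highest.

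The *Camk2b* region at chr11:6007154-6007653 was lower in all libraries. It was at 1.77 and 1.6, 0.36 and −0.16, and 0.39 and 0.44 in C57BL/6 and at 3.63 and 3.63, 2.47 and 3.29, and 2.84 and 2.99 in *Hivep3*-/- iNKT1, iNKT2 and iNKT17 cells. The exon region at chr11:6013265-6013764 was at 2.55 and 2.56, 1.06 and 0.17, and 1.03 and 1.11 in C57BL/6 and at 4.41 and 4.34, 2.89 and 2.95, and 3.99 and 3.66 in *Hivep3*-/- cells. Repeat sequence covered 89.8% of the first of these regions, 30.0% of the next and none of the exon region.

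*Cd247* encodes the zeta chain that carries the signal of the T cell receptor complex. Its member at chr1:165810006-165810505 lies in an intron, 513 bp from the start of the annotated gene *Gm23402*, and is therefore classed as promoter. It was at 0.36 and 1.07, 1.74 and 1.23, and 0.75 and 0.44 in C57BL/6 and at 2.57 and 2.55, 3.28 and 2.77, and 2.95 and 2.4 in *Hivep3*-/- iNKT1, iNKT2 and iNKT17 cells. The lowest *Hivep3*-/- value exceeded the highest C57BL/6 value across all subsets.

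The intergenic member near *Fosl2*, a bZIP transcription factor gene of the AP-1 family, lies 11.8 kb from its start, at chr5:32158042-32158541. It was at 1.91 and 1.78, −1.0 and 0.61, and 0.97 and 1.38 in C57BL/6 and at 3.26 and 4.28, 2.30 and 3.56, and 3.10 and 4.54 in *Hivep3*-/- iNKT1, iNKT2 and iNKT17 cells. Replicate 2 of the *Hivep3*-/- libraries was more than 1 above replicate 1 in each subset.

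**Figure D2:**
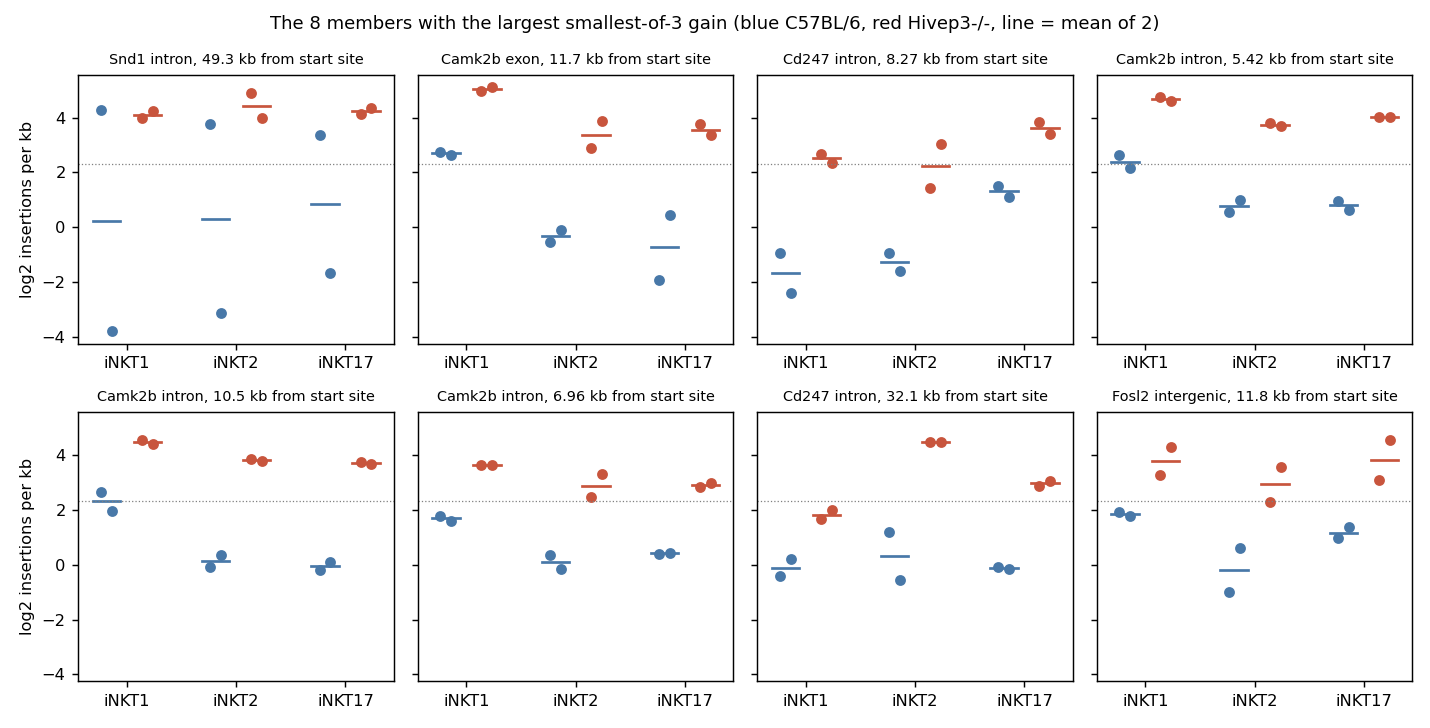
The 8 members with the largest smallest-of-3 gain, in log2 insertions per kilobase, with a point for each C57BL/6 (blue) or *Hivep3*-/- (red) library, lines at group means and a dotted line at 2.32. At *Snd1* C57BL/6 replicate 1 reaches 4.27 and replicate 2 falls to −3.79, while the genotypes are apart in every subset at the other 7 regions.

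Of the members in promoters, those with the largest smallest gains were at *Mef2d*, *Cd247* (above), *Foxred2* and 4.54 kb from *Pik3c3*, beside the transcript AC102496.1. The region at *Mef2d*, a MADS-box transcription factor gene, lay 0.662 kb from its start. It was at 1.11 and 1.34, −0.04 and −0.33, and 0.39 and −0.61 in C57BL/6 and at 2.62 and 3.05, 2.14 and 2.2, and 1.41 and 1.93 in *Hivep3*-/- iNKT1, iNKT2 and iNKT17 cells. The region at *Foxred2* was accessible in iNKT1 cells alone, at 2.87 and 2.74 in C57BL/6 and 4.39 and 4.43 in *Hivep3*-/- cells. In iNKT2 and iNKT17 cells none of its 8 values was above −0.78, so its gains there were between very low levels.

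*Ifrd1* and *Lsmem1*, neighbours on chromosome 12, held 6 members among the 31 regions of their 1 Mb window. The *Ifrd1* exon region at chr12:40202229-40202728 was at 2.33 and 3.26, 2.10 and 3.38, and 2.82 and 3.65 in C57BL/6 and at 4.08 and 4.82, 4.17 and 5.32, and 4.78 and 5.33 in *Hivep3*-/- iNKT1, iNKT2 and iNKT17 cells. Replicate 2 was above replicate 1 in all 6 groups by 0.546 to 1.28, beside gains of 1.65, 2.00 and 1.82. The member closest to the *Lsmem1* start, at 0.091 kb, had gains of 0.61, 0.62 and 0.63.

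Members were spread over 354 windows of 1 Mb, and 241 of these held 1 member, while a few windows were dense. The window with most, at *Cd247*, held 21 of 87 regions, the next, at *Camk2b* and at *Hip1r*, which encodes an endocytic adaptor, 7 of 77 and 7 of 126, and those at *Ifrd1* and *Cx3cr1*, the fractalkine receptor gene, 6 of 31 and 6 of 91. The 10 fullest windows held 12.8% of members, against 9.39% of the regions lost in all 3 subsets in their own 10 fullest. Within 10 kb of another member lay 162 members (28.8%), against 121 of the lost regions (19.9%). The longest run of neighbouring regions that were all members had 17 and was at *Cd247*.

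By locus, taken as the gene that holds a region or else the nearest coding gene, members fell at 421 loci, of which 340 had 1 member and 29 had 3 or more. *Cd247* had 20 of its 33 regions, *Lsmem1* 3 of 4, *5830411N06Rik* 4 of 5, *Snd1* 3 of 5, *Sema6d*, a semaphorin gene, 4 of 8 and *Itga4* 5 of 12. At larger loci members were a minority of the regions, with 4 of 25 at *Ikzf2*, 4 of 40 at *Jak1* and 4 of 53 at *Ubash3b*. No member lay at *Hivep3*, and within 10 Mb of it 4 of 606 regions (0.66%) were members. Between chromosomes the share of members ran from 0.292% (chromosome 14) to 1.4% (chromosome 18).

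Loci with several members differed in how far the gain extended. Over the gene body and 10 kb to either side, the median gain of all regions at *Cd247* was 1.32, 1.09 and 1.20 in iNKT1, iNKT2 and iNKT17 cells, and 30 of 33 regions were above 0 in all 3 subsets. At *Itga4*, the integrin alpha 4 gene, it was 1.57, 0.904 and 0.786, and all 8 regions were above 0. At *Camk2b* it was 0.267, 0.437 and 0.871, and at *Ikzf2*, which encodes the zinc finger factor Helios, 0.276, 0.596 and 0.191 with 13 of 21 regions above 0. At *Camk2b* and *Ikzf2* the members thus stood beside regions that changed little or the other way, and beside some that gained but missed the rule. One such region, 16.04 kb from the *Ikzf2* start, had differences of 0.551, 2.204 and 1.298 in iNKT1, iNKT2 and iNKT17 cells. Another, 63.54 kb from the *Camk2b* start, had 0.886, 0.518 and 1.439.

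**Figure D3:**
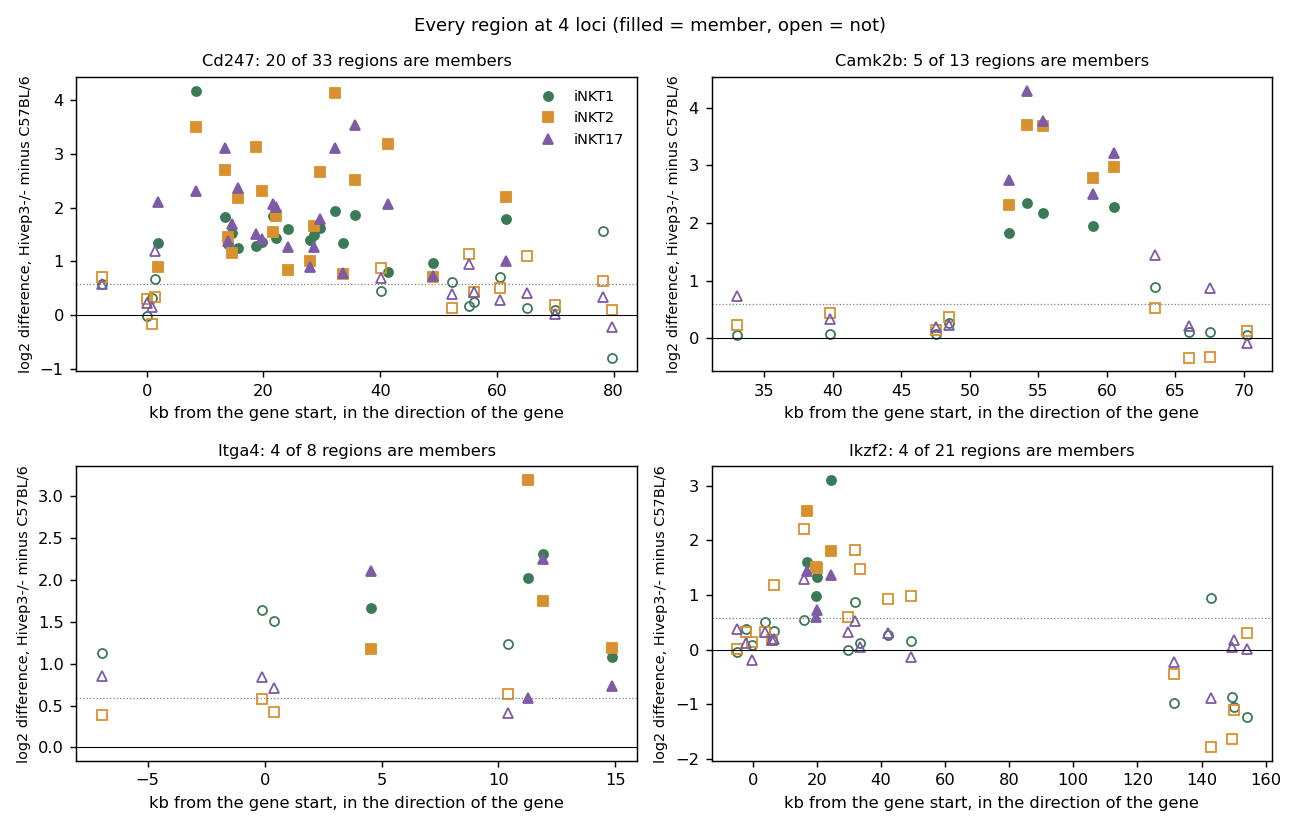
Difference between the *Hivep3*-/- and C57BL/6 group means (log2) at every region of 4 loci, against the distance from the gene start in kilobases, with filled marks for members, open marks for other regions and a dotted line at 0.585. Members are 20 of 33 regions at *Cd247*, 5 of 13 at *Camk2b*, 4 of 8 at *Itga4* and 4 of 21 at *Ikzf2*.

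At *Itga4*, an intron region at chr2:79266445-79266944 was at 2.00 and 2.76 in C57BL/6 and 4.36 and 4.46 in *Hivep3*-/- iNKT1 cells. In iNKT2 cells it went from −3.02 and −2.10 to 0.51 and 0.76, and in iNKT17 cells from −1.91 and −0.61 to −1.52 and 0.19. It was accessible only in iNKT1 cells, and in iNKT17 cells the genotypes overlapped. Another intron region, at chr2:79259709-79260208, was highest in iNKT2 cells, at 2.61 and 2.64 in C57BL/6 and 3.76 and 3.84 in *Hivep3*-/- cells.

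At *Ikzf2*, the intron region at chr1:69670047-69670546 was at 2.35 and 2.19, 2.15 and 1.39, and 1.79 and 1.69 in C57BL/6 and at 3.84 and 3.90, 4.40 and 4.22, and 3.10 and 3.25 in *Hivep3*-/- iNKT1, iNKT2 and iNKT17 cells. In C57BL/6 cells the 3 subsets lay close together, and in *Hivep3*-/- cells the iNKT2 libraries were the highest.

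Members at genes of T cell biology were read against lists of genes, with a region assigned to each gene within 10 kb. Of 14969 coding genes with a region that close, 425 (2.84%) had a member. This share was not matched for the number of regions at a gene, on which the chance of holding a member depends. The counts of genes below are therefore not compared with it. Of the T cell receptor and its proximal signalling, 3 of 29 genes had one, *Cd247* and *Ptprc* among them, with 22 of 457 regions (4.81%, against 0.906% of autosomal regions). Outside *Cd247* it was 2 of 424. The intron region of *Ptprc*, which encodes the phosphatase CD45, was at 3.28 and 3.40, 2.35 and 1.82, and 1.46 and 0.82 in C57BL/6 and at 3.98 and 4.04, 2.68 and 2.90, and 1.5 and 2.56 in *Hivep3*-/- iNKT1, iNKT2 and iNKT17 cells, with no overlap within a subset.

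Of cytokines and their receptors, 6 of 31 genes had members, with 7 of 278 regions (2.52%). They were the receptor chain genes *Ifngr1*, *Il18rap*, *Il21r*, *Il2ra*, *Il4ra* and *Tgfbr2*, and the share of receptor genes in the list was not compared. The intron region of *Il4ra*, the receptor chain shared by IL-4 and IL-13, was at 4.98 and 5.17, 3.80 and 4.10, and 5.30 and 5.50 in C57BL/6 and at 5.78 and 5.93, 5.35 and 5.68, and 6.11 and 6.45 in *Hivep3*-/- iNKT1, iNKT2 and iNKT17 cells. That of *Il2ra*, the alpha chain of the IL-2 receptor, was at 5.04 and 5.05, 4.34 and 4.47, and 4.52 and 4.84 in C57BL/6 and at 5.61 and 5.75, 5.04 and 5.09, and 5.54 and 5.75 in *Hivep3*-/- cells. Both were among the more accessible members, and replicate 2 was above replicate 1 in all 6 groups at both.

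Of the NF-κB pathway, 3 of 26 genes had members, with 4 of 192 regions (2.08%). They were *Nfkbid*, which encodes a nuclear IκB protein, with 2, *Tnip1*, which encodes a partner of the inhibitor A20, and *Nfkb2*, which encodes p100, near which the member lay at the promoter of *Psd*. The *Nfkbid* region at chr7:30429306-30429805 was at 3.17 and 3.51, 2.74 and 3.08, and 3.23 and 3.94 in C57BL/6 and at 3.96 and 4.35, 3.52 and 4.48, and 4.91 and 4.84 in *Hivep3*-/- iNKT1, iNKT2 and iNKT17 cells. None of these 4 members held the NF-κB consensus.

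Of transcription factors of iNKT cells, 6 of 36 genes had members, *Bach2*, *Hivep1*, *Ikzf2*, *Nr4a1* and *Tcf7* among them, with 12 of 696 regions (1.72%). Beside *Nr4a1*, an orphan nuclear receptor gene induced by receptor signals, the member at chr15:101274885-101275384 was at 4.05 and 4.41, 4.29 and 4.64, and 5.53 and 6.00 in C57BL/6 and at 4.79 and 5.54, 5.70 and 6.04, and 6.47 and 6.38 in *Hivep3*-/- iNKT1, iNKT2 and iNKT17 cells. At *Hivep1*, of the same family as *Hivep3*, the intron member at chr13:42113744-42114243 was at −0.11 and −1.65, −1.72 and −0.55, and 2.13 and 2.49 in C57BL/6 and at 1.88 and 2.29, 0.37 and −0.22, and 3.01 and 3.25 in *Hivep3*-/- cells. It was highest in iNKT17 cells in both genotypes.

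Effector and natural killer receptor genes had 2 members among 122 regions (1.64%), near *Prf1*, which encodes perforin, and *Tyrobp*, which encodes the adaptor DAP12. Migration and adhesion genes had 8 of 193 (4.15%), at *Ccr8*, *Itga4*, *Itgae* and *Selplg*, of which 4 were at *Itga4*. At *Ccr8*, a chemokine receptor gene, the intron member was at 5.46 and 5.18, 3.86 and 3.74, and 3.83 and 3.76 in C57BL/6 and at 6.26 and 6.16, 5.89 and 5.75, and 4.80 and 4.52 in *Hivep3*-/- iNKT1, iNKT2 and iNKT17 cells, so that its gain was largest in iNKT2 cells. Survival genes had 1 of 91 (1.1%), at *Bcl2l1*.

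The position of the members was not part of the rule. Of the 563, 68 (12.1%, Wilson 95% interval 9.64 to 15) lay within 1000 bp of a transcription start site, against 35.3% of autosomal regions and 9.72% of lost regions. In introns lay 317 (56.3%, 52.2 to 60.3), between genes 148 (26.3%) and in exons 30 (5.33%). Outside promoters, 64.0% of members and 56.7% of autosomal regions were in introns. The median distance to a start site was 7.20 kb in members, 9.20 kb in lost regions and 3.18 kb in all autosomal regions. At least 50% repeat sequence was found in 34 members (6.04%), 2.64% of lost and 2.94% of autosomal regions. The intervals cover counting error only and take regions as independent, which neighbours at 1 locus are not.

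The NF-κB consensus occurred in 117 members (20.8%, 17.6 to 24.3), in 57 lost regions (9.39%, 7.32 to 12.0) and in 5351 of all autosomal regions (8.61%, 8.39 to 8.83). Outside promoters the share was 20.2% of members and 8.04% of autosomal regions. Both strands were searched, and matches at different positions were counted separately where they overlap. At least 2 matches were found in 35 members (6.22%), 1.15% of lost regions and 1.44% of autosomal regions. A match describes the sequence and is not a binding site.

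Across autosomal regions the share with the consensus was higher with each further subset that passed the gain threshold, at 7.98% for none, 9.82% for 1, 13.7% for 2 and 20.8% for all 3. By the smallest gain it was 8.44% from −0.2 to 0, 13.6% from 0 to 0.2, 18.1% from 0.2 to 0.4 and 19.1% from 0.4 to 0.585, so it was already near the members' share below the limit. Within the members it was 18.6% at smallest gains of 0.585 to 0.8, 26.3% from 0.8 to 1 and 23.4% from 1 to 1.5. Of the 29 members above 1.5, at *Camk2b*, *Cd247*, *Snd1* and others, 3 (10.3%, 3.58 to 26.4) held it.

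**Figure D4:**
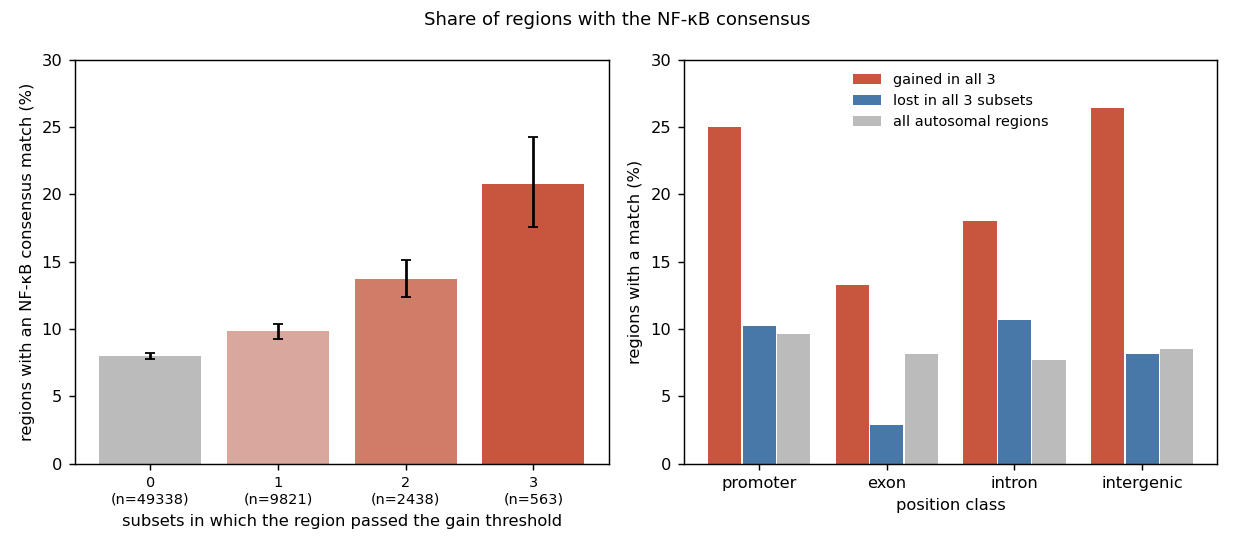
Share of regions with an NF-κB consensus match (%), left by the number of subsets in which an autosomal region passed the gain threshold, with Wilson 95% intervals, and right by position class for members (red), lost regions (blue) and all autosomal regions (grey). The share is 7.98%, 9.82%, 13.7% and 20.8% for 0, 1, 2 and 3 subsets, and among members it is 25.0% in promoters, 13.3% in exons, 18% in introns and 26.4% between genes.

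The share also exceeded that of all autosomal regions within ranges of base composition and level. From the lowest to the highest of 5 ranges of GC content it was 17%, 18%, 19.4%, 20.9% and 34.5% in members and 3.78%, 5.23%, 7.26%, 10.1% and 11.7% in autosomal regions. Over 4 ranges of the highest group mean it was 31.8%, 17.2%, 18.9% and 26.8% in members and 8.01%, 6.97%, 8.10% and 10.3% in autosomal regions. By repeat content the share in members went from 24.5% in regions under 10% repeat to 3 of 34 (8.82%) in those over 50%, and in autosomal regions from 9.53% to 5.25%.

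Matches in members lay near the middle of the region. Of 162 matches in members, 80 (49.4%) lay within 50 bp of the centre and 118 (72.8%) within 100 bp, with a median distance of 51 bp. In lost regions 31.2% of 64 matches lay within 50 bp, with a median of 108 bp, and in other autosomal regions 34.2% of 6132, with a median of 90 bp. The matches in members took 47 of the 64 sequences found in autosomal regions, and the commonest were GGGACTTTCC with 12, GGGGATTTCC with 9 and GGGGCTTTCC with 9.

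**Figure D5:**
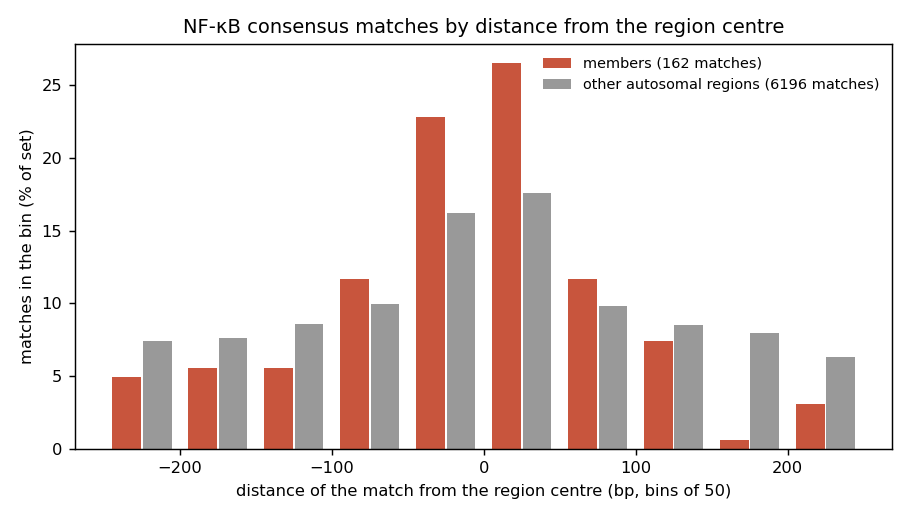
Distance of NF-κB consensus matches from the region centre in bins of 50 bp, as a percentage of the matches in members (red, 162) and in all other autosomal regions, lost regions included (grey, 6196). In members 49.4% of matches lie within 50 bp of the centre.

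The printed members show these forms. In *Slco3a1*, which encodes an organic anion transporter, the match reads as the consensus on both strands and lies within 50 bp of the centre of the region, which was at −0.94 and −0.41, 0.63 and 1.18, and 1.18 and 2.36 in C57BL/6 and at 1.10 and 0.97, 3.33 and 3.76, and 2.91 and 3.97 in *Hivep3*-/- iNKT1, iNKT2 and iNKT17 cells. The region was most accessible in iNKT2 and iNKT17 cells of *Hivep3*-/- mice.

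The *5830411N06Rik* region was at 0.81 and 1.28, −1.38 and −1.59, and 2.23 and 2.83 in C57BL/6 and at 2.82 and 2.60, 2.03 and 2.08, and 3.95 and 4.24 in *Hivep3*-/- iNKT1, iNKT2 and iNKT17 cells. Its gain was largest in iNKT2 cells, at 3.54. Near *Rasgrp1*, which encodes an activator of Ras in receptor signalling, the member was at −0.42 and −2.39, −3.79 and −1.59, and 0.57 and 1.6 in C57BL/6 and at 0.35 and 0.76, 0.66 and −0.59, and 2.01 and 3.02 in *Hivep3*-/- cells, so it reached the accessible level in iNKT17 cells alone.

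The member near *Gadd45b*, a stress-induced gene, was accessible in every library. It was at 4.14 and 4.44, 4.67 and 4.71, and 5.62 and 5.92 in C57BL/6 and at 4.71 and 5.12, 5.17 and 5.70, and 6.62 and 7.15 in *Hivep3*-/- iNKT1, iNKT2 and iNKT17 cells. A member near *Bcat1*, a branched-chain aminotransferase gene, held 4 matches of the same sequence, GGGGCTTCCC, spaced 49 bp apart. One at *Rara*, the retinoic acid receptor alpha gene, held 3, and all 3 members at that locus held at least 1.

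The other motifs were nearer in members to their share in lost or in all autosomal regions. AGATAA was in 23.6% of members, 38.6% of lost regions and 20.6% of autosomal regions, and outside promoters in 24.8% of members and 24.8% of autosomal regions. TGANTCA, the bZIP element, was in 22.2% of members, 22.2% of lost and 15.9% of autosomal regions (19.3% outside promoters). CACAGTG, the heptamer of recombination signals, was in 20.2%, 18.8% and 14.8%, AACCACA, the Runt element, in 20.2%, 22.1% and 17.4% (outside promoters in 19.8% of members and 21.7% of autosomal regions), CACCTG in 37.7%, 32.1% and 34.7% and TTTTCCA, the NFAT element, in 10.5%, 11.5% and 10.0%. AGGTGTGA, the T-box element, was in 3.73%, 4.28% and 2.93%, and TTCAAAGG, the TCF element, in 3.02%, 4.94% and 2.96%. Lower in members than in all autosomal regions were ACNGGAAGT, the ETS element, with 3.2% against 5.52%, GCGTGGGNG, the Egr element, with 0.888% against 2.59%, and the CTCF consensus with 0.178% against 3.95%. For these the lost regions had 3.62%, 2.31% and 0.329%. Outside promoters the 3 were in 3.23%, 0.606% and 0.202% of members and 6.15%, 1.54% and 4.92% of autosomal regions. The Egr share rests on 5 members, and its interval outside promoters (0.206 to 1.77) includes the autosomal share.

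Differences between subsets within a genotype were not part of the rule and were tested with limma by the same limits on fold and adjusted p (Benjamini-Hochberg). Such p-values measure the spread between these libraries, which may be technical. In C57BL/6 cells, 123 of 310 members tested (39.7%, against 16.0% of all regions tested) differed between iNKT1 and iNKT2, 97 higher in iNKT1 and 26 higher in iNKT2. Between iNKT1 and iNKT17 it was 154 of 358 (43.0%, against 20.5%), 77 in each direction, and between iNKT2 and iNKT17 112 of 293 (38.2%, against 16.2%), 29 higher in iNKT2 and 83 higher in iNKT17 cells. In *Hivep3*-/- cells it was 196 of 492 (39.8%, against 17.3%), 205 of 524 (39.1%, against 19.3%) and 150 of 466 (32.2%, against 15.6%). Not all members entered a comparison, and a weakly accessible member could pass the filter of 5 insertions per kilobase through the subset in which it was high, so these shares support nothing about the members.

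The shares moved with the level of a region, and members were less accessible than most regions. Without the filter, over all 563 members, 220 (39.1%), 239 (42.5%) and 183 (32.5%) differed in C57BL/6 cells, against 16.7%, 20.6% and 16.8% of autosomal regions, and 215 (38.2%), 213 (37.8%) and 165 (29.3%) in *Hivep3*-/- cells, against 17.9%, 19.7% and 16.3%. Within ranges of the mean over all 12 libraries, an alternative chosen after the values were seen, the distance depended on the range and the pair. For C57BL/6 iNKT1 and iNKT17 cells it was 88.0% of 108 members against 87.2% of autosomal regions with a mean under 1, 52.2% of 157 against 58.0% from 1 to 2, 25.2% of 135 against 26.4% from 2 to 3 and 17.9% of 112 against 16.3% from 3 to 4. Above 4 it was 8 of 51 (15.7%) against 6.18%, and 11.3% outside promoters. For C57BL/6 iNKT2 and iNKT17 cells the members' share was below that of autosomal regions in the lowest ranges, with 63.0% against 80.1% and 38.2% against 57%. Without matching for level, the same subset was highest in both genotypes for 497 members (88.3%). It was so for 76.5% of autosomal regions and 79.9% of those outside promoters. In C57BL/6 cells the highest subset was iNKT1 for 244, iNKT17 for 205 and iNKT2 for 114, while 35.8%, 31.7% and 32.5% of autosomal regions were highest in these subsets.

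The largest subset differences in C57BL/6 cells were in members open mainly in 1 subset. In *Myo16*, a myosin gene, the intron region at chr8:10540998-10541497 was at 6.27 and 6.51 in C57BL/6 iNKT17 cells, −1.59 and −3.12 in iNKT2 and 2.05 and 1.21 in iNKT1 cells. The difference of iNKT2 minus iNKT17 was −8.74 (SE 0.564, limma adjusted p = 8.59e-08), beside 7.0 and 7.11 in *Hivep3*-/- iNKT17 cells. Its neighbour at chr8:10538193-10538692 differed by −9.85 (SE 0.358, limma adjusted p = 3.1e-09), with both iNKT2 libraries at their lowest value, so that the size of this difference depends on that value.

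Near *Notch2*, a receptor gene of cell fate, the intergenic member was at 3.80 and 4.10 in C57BL/6 iNKT17 and at −3.12 and −3.79 in iNKT1 cells, a difference of iNKT1 minus iNKT17 of −7.40 (SE 0.702, limma adjusted p = 1.24e-06). Here both iNKT1 libraries were at their lowest value. In *Ptger3*, a prostaglandin E2 receptor gene, the intron member went the other way, at 3.44 and 3.54 in iNKT1 and −3.12 and −4.05 in iNKT17 cells, a difference of 7.07 (SE 0.611, limma adjusted p = 5.38e-07). There, iNKT17 replicate 2 was at its lowest value, on which the size depends.

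Between iNKT1 and iNKT2 cells the largest differences were at *Gas7* (6.80, SE 0.949, limma adjusted p = 5.78e-05) and near *Rpl9-ps1* (6.79, SE 0.964, limma adjusted p = 6.71e-05). Both were accessible in iNKT1 cells alone and at or near the lowest value in iNKT2 and iNKT17 cells, and belong to the 5 members whose iNKT17 gain lay between lowest values.

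The rule was then applied to the libraries of 1 replicate number and read in those of the other, which it had not used. On replicate 1 alone it gave 609 regions. In replicate 2, 464 of them (76.2%, against 15.9% of autosomal regions) were higher in *Hivep3*-/- cells in all 3 subsets and 222 (36.5%, against 0.954%) passed the threshold again, with median gains of 0.852, 0.914 and 0.765 in iNKT1, iNKT2 and iNKT17 cells. On replicate 2 alone it gave 593 regions, of which 435 (73.4%, against 15.4%) were higher in all 3 subsets in replicate 1 and 225 (37.9%, against 0.984%) passed again, with median gains of 0.884, 1.01 and 0.806. These medians were below those of the members, 1.01, 1.21 and 1.01, which were chosen on the same libraries they were read in. The consensus for NF-κB was in 17.6% and 18% of the regions so chosen. Each reading rests on 1 library per group, and the shares beside autosomal regions were not matched for level. What a replicate number shares between genotypes is not known either, so these shares are given as a description.

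Replicate number itself moved with the members. Replicate 2 was above replicate 1 in all 6 groups in 71 members (12.6%, against 7.31% of autosomal regions) and below it in all 6 in 7 (1.24%, against 7.55%). The median of replicate 2 minus replicate 1 was 0.110 to 0.201 over members and −0.0251 to −0.0130 over autosomal regions. Among the 71 were regions at *Ifrd1*, *Lsmem1*, *Fosl2*, *Zc3h12a*, *Nfkbid*, *Il4ra*, *Il2ra*, *Prf1* and *Gadd45b*. The NF-κB consensus was in 22 of the 71 (31.0%) and in 95 of the 492 other members (19.3%). Of all autosomal regions with replicate 2 above replicate 1 throughout it was in 17.3%, and of those with it below throughout in 5.22%. Of the promoter regions at other-cell genes, those of *Epcam*, an epithelial marker, and *Cebpa* were also higher in replicate 2 in all 6 groups. *Epcam* was at 3.46 and 4.10 in C57BL/6 and 3.47 and 4.40 in *Hivep3*-/- iNKT1 cells, for example. *Ebf1* was lower in replicate 2 in *Hivep3*-/- cells, at 2.95 and 2.83, 3.48 and 2.90, and 3.51 and 3.06 in iNKT1, iNKT2 and iNKT17 cells. *Spi1* was lower in replicate 2 in *Hivep3*-/- iNKT1 cells, at 5.35 and 5.23. The part of the difference between replicate numbers in the gains was not tested, and what a number shares across genotypes is not known.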

How the data were processed

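ATAC-seq had been performed on 12 libraries, 2 for each of 3 subsets and 2 genotypes. As deposited, the authors' values are log2 insertions per kilobase in merged regions of 500 bp: reads were trimmed to 50 bp (Trimmomatic 0.39, per the submitters' processing notes), mapped to mm10 with the ENCODE pipeline, merged with chromVAR and normalized with voom. After normalization the libraries had nearly the same sum and the same autosomal median, so depth is unknown. Their resolution at low values differed, from 73 distinct values up to the median (*Hivep3*-/- iNKT17 replicate 2) to 491 (*Hivep3*-/- iNKT1 replicate 2). The number was lower in *Hivep3*-/- than in C57BL/6 libraries of iNKT2 and iNKT17 cells and higher in those of iNKT1 cells. Its part in the gains was not tested.

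All regions were fitted in limma 3.58.1 (R 4.3.3) with 1 mean per group and a variance trend, giving 6 residual and 7.17 prior degrees of freedom. Regions were tested where either group averaged 5 or more insertions per kilobase on the linear scale, with Benjamini-Hochberg adjustment over all of them. The study's thresholds were kept.

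Coordinates are on GRCm38.p6, with genes from GENCODE vM21, and motifs were searched in its sequence (Python 3.11.15, numpy 2.4.6, pandas 2.3.3, scipy 1.17.1, pysam 0.24.0, matplotlib 3.10.9). Promoters are region centres within 1000 bp of a start site. The scripts were tested on simulated data.

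Within a genotype, deviations of same-numbered libraries correlated between subsets with 0.119 to 0.167, every pair above 0.1. Across genotypes, which share no mice, they correlated with 0.0903 to 0.175, so these values do not show a shared pool. The numbers were still used to pair subsets within a genotype, as an assumption. No source used here says what a number shares across genotypes.

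Regions named are the 8 members and the 4 promoter members with the largest smallest gain, the 5 fullest windows, members within 10 kb of listed genes, the 3 regions on either side of each limit, members called in all 3 genotype contrasts and the 2 largest called differences for each C57BL/6 subset pair. Regions at a few listed genes are not reported here. Any other region named was picked with its values known. The members and the gene lists were chosen with earlier results of these data known. Alternatives changed the limits, pseudocount, scaling, filter, promoter width, window, variance model and replicates.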

Additional observations from a re-analysis of the deposited data

How the results depend on the processing

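The number of members depended on the limits, while most shares moved little. A gain of at least 1 in each subset left 123 members and a pseudocount of 1 left 306, and these held 32.5% and 19% in their 10 fullest windows. Leaving out 1 library at a time gave 510 to 624 members, with 11.2 to 13.3% in promoters, 55.1 to 59.2% in introns, 11.9 to 13.7% in the 10 fullest windows and 16.5 to 21.5% with the NF-κB consensus. The lowest of these last shares, 16.5%, was without C57BL/6 iNKT1 replicate 1. Each such list shared 80.5 to 93.4% of the members, and 186 (33.0%) were in every list. Counting promoters within 500 bp gave 6.57%. With no filter, 220, 239 and 183 members differed between C57BL/6 iNKT1 and iNKT2, iNKT1 and iNKT17, and iNKT2 and iNKT17 cells, since all 563 were then tested, and with a 2-fold threshold 186 differed between iNKT1 and iNKT2. Leaving out 1 library gave 122 to 125, 154 to 170 and 101 to 119 in C57BL/6 and 189 to 200, 200 to 207 and 135 to 154 in *Hivep3*-/- cells. With the replicate number as a block within genotype, the pairing gave 125, 154 and 112 members in C57BL/6 and 196, 205 and 150 in *Hivep3*-/- cells, which changed no call count by over 1.5 times. In alternatives chosen after the data were seen, members with no library at its lowest value had the consensus in 20.8%, those outside *Cd247* in 21.2% and those under 50% repeat sequence in 21.6%.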

Other observations

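On the X chromosome, which the rule left out, 13 of 1144 regions met the same values.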
